A study of Mus musculus with 12 samples.

Results

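The regions described here are promoter peaks that were open in both brown adipose tissue (BAT) and cold-acclimated inguinal white adipose tissue (iWAT). ATAC-seq, in which a transposase inserts sequencing adapters into accessible DNA, gave a table of 58558 peaks for BAT and 39558 for iWAT. A BAT peak was taken as a promoter peak when the deposited distance to the nearest transcription start site was at most 1000 bp, which held for 12563 peaks. Of these, 11359 overlapped an iWAT peak by at least 1 bp, and each was paired with the iWAT peak of longest overlap. The 11359 shared promoter peaks made up 19.4% of the BAT table, and their 11345 partners made up 28.7% of the iWAT table. The choice used peak positions only and no read count, but a position exists only where a peak was called in the depot.

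All mice were C57BL/6. Flox mice carried BAF60a (Smarcd1) flox/flox alleles and served as controls, and AKO mice carried the same alleles together with Adiponectin-Cre, a transgene that is active in adipocytes. BAT came from 3 flox and 3 AKO mice, each frozen on its own; their age and housing temperature were not given in the sources used here. For iWAT, the pads of 6 mice of each genotype, 6 to 8 months old and cold-acclimated at 10 °C for 7 days, went into 1 pool, of which 3 aliquots were processed, so that an iWAT test covers the spread between aliquots and not between mice. Both were whole tissues, which hold other cells besides the adipocytes that lose BAF60a, and in such samples fewer cells of a type cannot be told apart from less open chromatin per cell. Reads in peaks ran from 6336670 to 27500738 in the BAT samples and from 4066720 to 6691161 in the iWAT samples. AKO replicate 2 had the fewest reads of the BAT samples and flox replicate 1 the most.

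BAF60a is a subunit of the SWI/SNF complexes, which use ATP to move or eject nucleosomes. Promoters of mouse genes fall into those within CpG islands, stretches rich in G, C and the dinucleotide CpG that are open in most cell types, and those poor in CpG, which are more often open in particular tissues. Core promoter elements such as the TATA box, the GC box bound by SP proteins and the CCAAT box bound by NF-Y lie shortly before the start site. In BAT and in beige fat, which forms within iWAT in the cold, thermogenic genes are driven by PPARγ and its coactivators.

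The promoters of 9 genes are shown first because the results below return to them. Pck1, Otop1, Atp8b3 and Cfd belong to peaks with fewer reads in AKO BAT, Eif4a2 had more reads in AKO in both depots, H2-Aa and Gng4 were among the pairs with the largest difference between depots relative to its error, Hcls1 had fewer reads in both, and Smarcd1 is the targeted gene. Each line gives the 150 bases before the RefSeq start site, 5′ to 3′ on the gene's strand, from build GRCm38.p6. Capitals mark exact matches, on either strand, to the 9 motifs defined further on. The stretches lie at chr2:173152923-173153072 on the plus strand for Pck1, chr5:38277254-38277403 on the plus strand for Otop1, chr10:80539125-80539274 on the minus strand for Atp8b3, chr10:79890703-79890852 on the plus strand for Cfd, chr16:23107318-23107467 on the plus strand for Eif4a2, chr17:34287824-34287973 on the minus strand for H2-Aa, chr13:13784157-13784306 on the plus strand for Gng4, chr16:36934833-36934982 on the plus strand for Hcls1, and chr15:99702137-99702286 on the plus strand for Smarcd1.
Pck1: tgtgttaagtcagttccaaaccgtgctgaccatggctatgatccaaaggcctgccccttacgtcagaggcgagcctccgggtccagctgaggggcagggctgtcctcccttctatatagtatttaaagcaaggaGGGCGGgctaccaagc
Otop1: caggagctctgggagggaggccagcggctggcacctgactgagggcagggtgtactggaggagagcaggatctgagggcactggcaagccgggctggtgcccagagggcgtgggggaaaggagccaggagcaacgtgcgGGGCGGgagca
Atp8b3: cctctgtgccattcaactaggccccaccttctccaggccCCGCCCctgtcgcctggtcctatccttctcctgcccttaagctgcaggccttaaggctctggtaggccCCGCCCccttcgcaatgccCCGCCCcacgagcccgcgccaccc
Cfd: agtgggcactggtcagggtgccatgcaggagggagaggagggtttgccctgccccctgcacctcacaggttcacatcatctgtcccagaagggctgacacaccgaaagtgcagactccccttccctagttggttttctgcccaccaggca
Eif4a2: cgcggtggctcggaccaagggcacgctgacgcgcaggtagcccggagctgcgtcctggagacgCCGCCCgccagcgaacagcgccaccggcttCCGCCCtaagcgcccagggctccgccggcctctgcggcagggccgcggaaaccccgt
H2-Aa: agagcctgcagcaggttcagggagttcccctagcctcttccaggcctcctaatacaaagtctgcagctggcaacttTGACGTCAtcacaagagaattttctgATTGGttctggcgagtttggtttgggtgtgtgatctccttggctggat
Gng4: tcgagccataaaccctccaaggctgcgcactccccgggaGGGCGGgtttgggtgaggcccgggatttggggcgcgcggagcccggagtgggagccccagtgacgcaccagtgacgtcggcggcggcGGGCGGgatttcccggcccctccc
Hcls1: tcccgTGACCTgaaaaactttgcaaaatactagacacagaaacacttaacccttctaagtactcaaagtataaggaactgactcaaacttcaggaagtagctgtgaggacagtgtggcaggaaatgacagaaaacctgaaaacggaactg
Smarcd1: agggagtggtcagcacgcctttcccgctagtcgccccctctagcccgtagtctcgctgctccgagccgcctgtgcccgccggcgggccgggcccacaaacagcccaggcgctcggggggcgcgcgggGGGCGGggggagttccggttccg

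The capitals in these stretches are mostly the GC box, which is present in Pck1, Otop1, Atp8b3, Eif4a2, Gng4 and Smarcd1. The H2-Aa stretch holds a CRE followed by a CCAAT box on the opposite strand, the stretch of Hcls1 holds 1 nuclear receptor core site, and that of Cfd holds none of the 9 motifs. RefSeq entries were used for the printed letters only.

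The shared promoter peaks were wide, GC-rich peaks sitting on start sites of coding genes. Their median distance to the start site was 67 bp, with quartiles of -55.5 and 207 bp, and 71.6% lay within 250 bp. They carried 11069 gene names, 10668 of the peaks belonged to protein-coding genes, and 274 genes had more than 1 such peak. Of all promoter peaks in BAT, 90.4% had an iWAT partner, against 43.8% of the peaks farther from a start site. The gene assigned to the peak was the same in both tables for 97.6% of the pairs. The median overlap was 729 bp, and 9929 pairs (87.4%) overlapped by at least 50% of both peaks. A protein-coding start site of the GENCODE annotation lay inside 10498 of the peaks (92.4%), and 987 (8.69%) covered starts on both strands, as at divergent gene pairs. The peaks were spread over 19 autosomes, with 308 to 955 on each, and 64 were narrower than 200 bp.

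In width and base composition they stood apart from both the other promoter peaks and the other shared peaks. The median width was 948 bp, against 405 bp for the 1204 BAT promoter peaks with no iWAT partner and 533 bp for the 20128 shared peaks away from promoters. The median GC content was 62.5%, against 59.9% and 51.9%. The ratio of observed to expected CpG had a median of 0.754, against 0.492 and 0.223. A CpG-rich peak was defined by a ratio of at least 0.6 and a GC content of at least 50%, which held for 8856 shared promoter peaks (78.0%), for 39.0% of the BAT promoter peaks without a partner and for 6.09% of the shared peaks elsewhere. Read density, given in normalized reads per kb of peak within the BAT table, had a median of 419, against 174 and 295. The iWAT partners had a median width of 764 bp and a median GC content of 64.2%. These are descriptions over peaks, which are not replicates, and no test was made. A partner requires that a peak was also called in iWAT, which wide peaks with many reads meet more readily. The gaps in width and read density to the promoter peaks without a partner are therefore not independent of the choice.

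**Figure D1:**
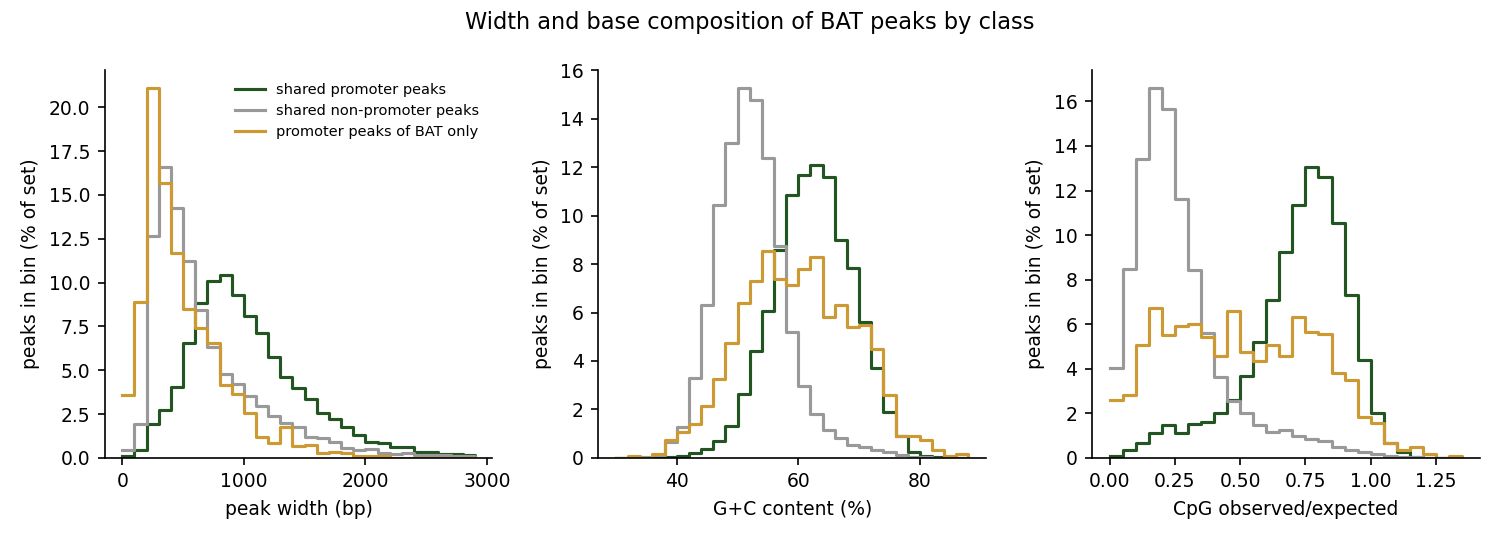
Distributions of peak width (bp), GC content (%) and observed-to-expected CpG ratio for the shared promoter peaks, the BAT promoter peaks without iWAT partner and the shared peaks away from promoters, each as percent of the set per bin. The shared promoter peaks are shifted to larger widths (median 948 bp), higher GC (62.5%) and higher CpG ratio (0.754).

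Peaks on either side of the distance limit were alike in GC content but not in size. The 95 shared promoter peaks at 900 to 1000 bp from a start site had a median width of 1646 bp, 520 normalized reads and 59.1% GC. The 89 shared peaks just beyond the limit, at 1000 to 1100 bp, had a median width of 1200 bp, 325 normalized reads and 58.8% GC.

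The start-site windows of these genes were rich in the elements of CpG island promoters. Each of the 9 motifs was searched as an exact match on both strands, in the 250 bp before and 50 bp after the GENCODE start, in the 10498 shared promoter peaks that cover one and in 20780 such windows of protein-coding genes. The GC box GGGCGG was present in 70.6% of the shared promoters and 45.7% of all windows. The ETS motif CCGGAAG was present in 18.1% against 11.3%, the NRF1 motif GCATGCGC in 5.42% against 3.41%, the CRE TGACGTCA in 3.62% against 2.43% and the E-box CACGTG in 10.5% against 7.81%. CCAAT was equally frequent, with 37.5% against 37.9%, as was the YY1 motif AAGATGG, with 6.82% against 6.41%. The TATA box TATAAA was rarer, with 5.71% against 13.1%, and so was AGGTCA, the core site of nuclear receptors such as PPARγ, with 10.96% against 14.3%. The median GC content of the windows was 62.3% in the shared promoters and 56.0% in all windows. An exact match describes the letters and not the binding of a factor.

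The 5 named peaks with most normalized reads were different ones in BAT and in iWAT. In BAT the top 5 were Cox14, a cytochrome c oxidase assembly factor, Plin4, a lipid droplet coat protein, Acsl1, an acyl-CoA synthetase, Cebpb, a transcription factor of adipogenesis, and Klf10. Cox14 held 5015, 4528 and 4600.0 normalized reads in flox and 4631, 3490.0 and 4527 in AKO, and the groups overlapped. Plin4 held 5008, 4610.0 and 4286 against 4175, 2716 and 3788, so that every flox sample was above every AKO sample, but the fitted log2 fold change was only -0.09 (SE 0.187, adjusted p = 0.911 from limma). In iWAT the top 5 were Sp1, Dnpep, Sp4, Brd2 and Zfpm1. Sp1, whose protein binds the GC box, held 1600.0, 1474 and 1525 normalized reads in iWAT flox and 1599, 1526 and 1624 in iWAT AKO, with overlapping groups. Levels are compared within a table only, since BAT and iWAT were normalized separately.

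Across all shared promoter peaks the flox levels per kb of the depots were correlated. Pearson's r of the log2 flox level per kb between a BAT peak and its iWAT partner was 0.846 over the 11359 pairs, and 0.549 over the shared peaks away from promoters. Both sets share the same flox libraries, so the r is a description.

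The share of reads that fell into the shared promoter peaks did not separate the genotypes. In BAT it was 45.4%, 43.1% and 41.2% of the reads in peaks in flox and 42.8%, 39.3% and 44.8% in AKO, or 43.2 ± 2.06% and 42.3 ± 2.81% (mean ± SD, n = 3; exact two-sided permutation test p = 0.6). In iWAT it was 56.6%, 57.0% and 55.5% in flox and 55.8%, 56.3% and 57.2% in AKO, or 56.4 ± 0.804% and 56.4 ± 0.691% (exact two-sided permutation test, n = 3, p = 0.9). With 3 samples against 3 the smallest p this test allows is 0.1. The median log2 level of the shared promoter peaks stood above that of the non-promoter peaks by 2.28, 2.07 and 1.90 in BAT flox and by 2.03, 1.76 and 2.16 in BAT AKO (exact permutation p = 0.6).

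In BAT the highest and the lowest share belonged to the samples at the ends of the first principal component (PC1) of the peak table. PC1 took 55.6% of the variance. It was computed over all peaks, the shared promoter peaks included, so it is not independent of their share. PC1 scores were -98.2, -41.8 and 14.6 in flox and -0.617, 112 and 13.5 in AKO. Flox replicate 1 had the lowest score and the highest promoter share, and AKO replicate 2 had the highest score, the lowest share and the fewest reads. Between these samples the order was not kept. AKO replicate 3, with a score of 13.5, had a share of 44.8%, above the 43.1% of flox replicate 2 with -41.8. PC1 was a covariate in the BAT fit, and values without AKO replicate 2 are given below. Flox scores leaned lower than AKO scores, flox replicate 3 excepted, so PC1 was partly aligned with genotype in BAT. The fit with PC1 can therefore take out part of a genotype difference, and PC1 and genotype cannot be fully told apart in it. In iWAT, PC1 took 33.8% of the variance and separated the genotypes (-41.4, -32.2 and -30.9 in flox; 37.8, 37.3 and 29.4 in AKO), so it was not used there.

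**Figure D2:**
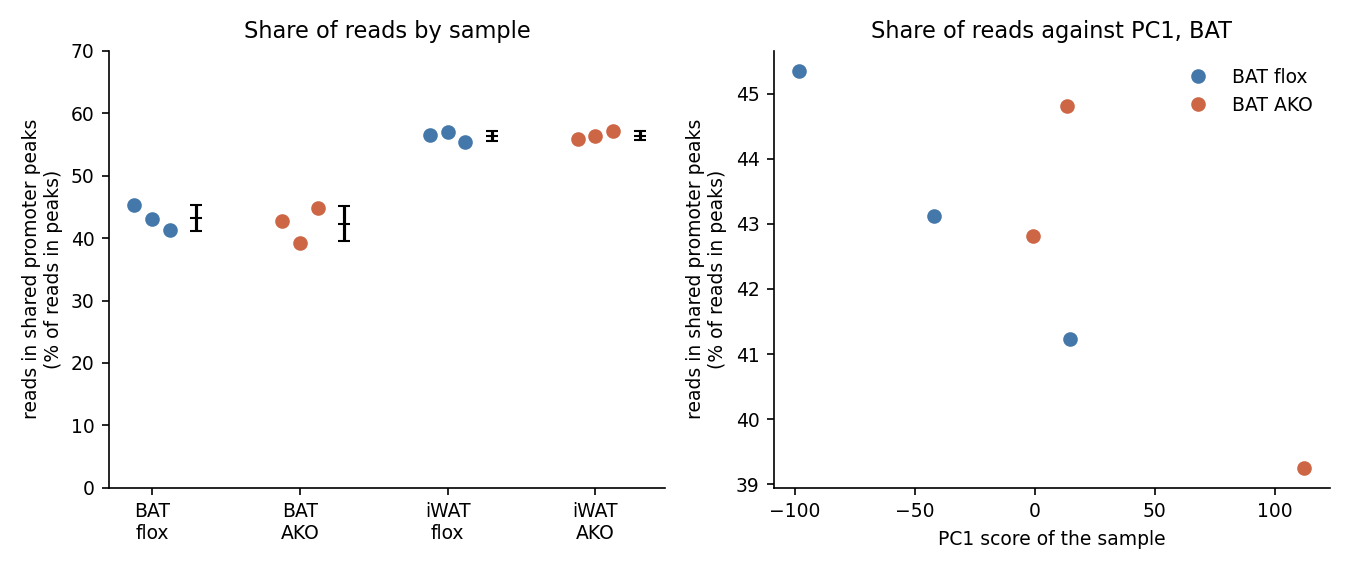
Left, percent of the reads in peaks that fell in shared promoter peaks, for each sample by depot and genotype, with group means; right, the BAT percentages against the PC1 score of the sample. BAT samples range from 39.3% to 45.4% and iWAT samples from 55.5% to 57.2%, with genotypes overlapping in both depots. In BAT the lowest PC1 score goes with the highest share and the highest score with the lowest share.

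The part of Smarcd1 that Cre removes is not given in the sources used here, and the promoter peak was therefore not taken as a check. It held 485, 456 and 369 normalized reads in BAT flox and 412, 417 and 497 in BAT AKO (437 ± 60.5 against 442 ± 47.5, mean ± SD). In iWAT it held 249, 188 and 211 against 233, 229 and 230 normalized reads. The log2 fold changes were 0.19 (SE 0.201, adjusted p = 0.797 from limma) in BAT and 0.11 (adjusted p = 0.774 from limma) in iWAT. A peak inside the gene, at chr15:99704113-99704521, is no promoter peak but separated the genotypes in BAT, with 136, 201 and 185 normalized reads in flox and 23.7, 57.9 and 26.9 in AKO (log2 fold change -2.98, SE 0.265, adjusted p = 0.269 from limma). The promoters of the paralogs, Smarcd2 with 2 peaks and Smarcd3 with 1, overlapped between genotypes in both depots, with BAT log2 fold changes of -0.13, 0.15 and -0.16 and iWAT log2 fold changes of -0.00, -0.12 and 0.04.

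The first comparison was AKO against flox BAT, which asks where loss of BAF60a in adipocytes went with altered accessibility of these promoters. The smallest p-values from limma belonged to peaks with more reads in AKO, at Angptl7, Cd109 and Eif4a2, and the lower peaks with the smallest p were those of Fmo1, Pck1, Otop1, Cdo1 and Atp8b3, the last a phospholipid flippase gene. None of these passed limma's adjusted threshold, and DESeq2 called Eif4a2 higher and all 5 of the lower ones. Limma, fitted on log2 (normalized reads + 1) over all 58558 peaks with Benjamini-Hochberg adjustment, called none of the shared promoter peaks in either direction at an adjusted p under 0.1. It also called 0% of all peaks lower and 0% higher. At an unadjusted p under 0.05, limma had 62 shared promoter peaks lower (0.546%) and 276 higher (2.43%), against 5.59% and 3.46% of all peaks. DESeq2, run on the read counts recovered from the table, called 14 shared promoter peaks lower (0.127%) and 4 higher (0.0362%) among 11041 tested, against 0.298% lower and 0.11% higher of all peaks it tested. The edgeR quasi-likelihood test on the same counts called 10 lower and 1 higher, against 0.114% and 0.029% of all peaks.

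Pck1, which encodes the cytosolic enzyme of glyceroneogenesis, had the largest log2 fold change among the peaks that DESeq2 called lower. Its promoter peak, at chr2:173151769-173154922, held 4698, 4086 and 3621 normalized reads in flox and 1973, 1551 and 1325 in AKO. The lowest flox sample stood well above the highest AKO sample. The log2 fold change was -1.19 (SE 0.240), with an adjusted p of 0.431 from limma and 1.27e-07 from DESeq2. With each of the 6 BAT samples left out in turn, DESeq2 called Pck1 in 6 of 6 runs. In iWAT the same promoter held 553, 340.2 and 468 normalized reads in flox and 344, 398 and 334 in AKO, and the groups overlapped.

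Fmo1 encodes a flavin monooxygenase of small-molecule oxidation. Its promoter peak held 1049, 990.2 and 1045 normalized reads in BAT flox and 547, 442 and 409 in BAT AKO. The groups were far apart, with a log2 fold change of -1.09 (SE 0.209) and adjusted p-values of 0.417 from limma and 7.88e-06 from DESeq2.

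Otop1, the proton channel gene that marks brown adipocytes, held 2585, 2494 and 2380.0 normalized reads in flox and 1431, 1232 and 1373 in AKO. Its log2 fold change was -0.77 (SE 0.170), with adjusted p-values of 0.436 from limma and 1.01e-05 from DESeq2. DESeq2 called both Fmo1 and Otop1 in 5 of 6 runs with a sample left out, all but the run without flox replicate 3.

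Cdo1, the cysteine dioxygenase gene of taurine synthesis, held 636, 670.2 and 608 normalized reads in flox and 382, 388 and 317 in AKO (log2 fold change -0.85, adjusted p = 0.00526 from DESeq2). Atp8b3 held 422, 518 and 415 against 228, 324 and 245 (log2 fold change -0.96, adjusted p = 0.00757 from DESeq2). The groups did not overlap for either gene. Both were lost in some of the runs with a sample left out, in which DESeq2 called Cdo1 in 2 of 6 and Atp8b3 in 4 of 6.

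The remaining peaks that DESeq2 called lower, named because DESeq2 called them and not by a rule of size, were Car3, Lncbate1, Abcb9, Ctcflos, B430010I23Rik, Mir183, Cfd, A730020M07Rik and Dgat2. Car3, a carbonic anhydrase gene abundant in fat and muscle, held 858, 1177 and 1482 normalized reads in flox and 682, 581 and 654 in AKO. Dgat2, which encodes the last enzyme of triglyceride synthesis, held 1224, 1063 and 1097 against 745, 498 and 661. Cfd, the gene of the secreted protease adipsin, held 370.5, 379 and 389 against 229.9, 305 and 239. The groups were separate in each, but Dgat2 kept its call in 1 and Cfd in 0 of the 6 runs with a sample left out. Mir183 and Ctcflos name the nearest start site and not a measured transcript.

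Among the peaks with more reads in AKO BAT, the one with the strongest call was the promoter of Eif4a2, a translation initiation factor gene. It held 940.0, 712 and 634 normalized reads in flox and 1308, 888 and 1232 in AKO. AKO replicate 2, with 888, was below flox replicate 1, so the groups overlapped. The log2 fold change was 0.997 with PC1 in the fit (SE 0.173, adjusted p = 0.417 from limma and 1.19e-07 from DESeq2) and 0.58 without it. DESeq2 called it in 6 of 6 runs with a sample left out.

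The other peaks with the smallest p among those higher in BAT were low in reads and had no adjusted p from DESeq2, which sets peaks with low counts aside. Cd109, a surface glycoprotein gene, held 38.1, 35.5 and 40.1 normalized reads in flox and 83.5, 75.3 and 93.1 in AKO (log2 fold change 1.19). Maneal, an endomannosidase-like gene, held 30.3, 25.9 and 38.8 against 76.3, 94.6 and 75.8 (log2 fold change 1.11). H2-Aa, an MHC class II chain gene of antigen-presenting cells, held 31.4, 35.5 and 38.8 against 72.2, 71.5 and 78.7 (log2 fold change 0.98). Angptl7 held 52.8, 40.6 and 31.1 against 73.2, 57.9 and 82.5 (log2 fold change 1.204). In all of them the groups were separate, and limma's adjusted p was 0.417. DESeq2 also called Fam124a, Mafa and Cish higher, each lost in at least 4 of the 6 runs with a sample left out, and Cish went from a log2 fold change of 0.66 with PC1 to -0.33 without it.

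Over all 11359 peaks, the direction in BAT depended on PC1. With PC1 in the limma fit the median log2 fold change was 0.11 and 26.0% of the peaks were negative, against a median of 0.01 for all BAT peaks and -0.04 for non-promoter peaks. Without PC1 the median was -0.07 and 61.1% were negative. Without AKO replicate 2 and with PC1 the median was 0.11, with 52 peaks lower and 216 higher at an unadjusted p under 0.05, against 5.93% and 3.81% of all BAT peaks in that fit. A log2 fold change of at least 1 in size was found for 14 peaks with PC1 and 65 without it, out of 790 and 1613 among all BAT peaks. Peaks whose genotypes did not overlap were counted on the normalized reads, which are not adjusted for PC1. There were 719 lower in AKO (6.33%) and 1013 higher (8.92%), against 8.84% and 8.77% of all BAT peaks. Without AKO replicate 2, when fewer samples have to separate, these were 827 (7.28%) and 1410 (12.4%), against 12.9% and 11.4% of all BAT peaks.

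The counts by CpG class are a description, and the difference between the classes was not tested. At an unadjusted p under 0.05, 18 of 8856 CpG-rich peaks (0.203%) and 44 of 2503 CpG-poor peaks (1.76%) were lower in AKO BAT, both below the 5.59% of all BAT peaks. For the higher direction these were 2.41% and 2.52%, both below the 3.46% of all BAT peaks. In iWAT the CpG-poor peaks had the larger share in both directions, with 5.39% lower and 5.31% higher against 2.04% and 3.23% of the CpG-rich peaks. Both classes were below all iWAT peaks, with 7.42% lower and 7.61% higher. CpG-poor peaks also had fewer reads, with a median of 306 normalized reads in BAT against 443. Of the 14 peaks that DESeq2 called lower, 2 were CpG-rich and 12 CpG-poor, and all 4 called higher were CpG-rich. The median log2 fold change was 0.13 for CpG-rich and 0.06 for CpG-poor peaks with PC1, and -0.08 and -0.02 without it. The printed promoters show the classes: those of Cfd and Pck1 come from CpG-poor peaks, with CpG ratios of 0.208 and 0.288, and those of Eif4a2, Gng4 and Smarcd1 from CpG-rich ones. Among peaks with a start-site window, the GC box was present in 53.3% of the 45 lower and 67.7% of the 226 higher, the TATA box in 11.1% and 6.19%, and the ETS motif in 4.44% and 15.5%.

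The second comparison was AKO against flox in iWAT of cold-acclimated mice. The lower peaks with the smallest p from limma were those of H2-Ab1, Bcl11a, S1pr1, Inpp5d and Ddx58, and the higher ones were those of Tmc5, Gng4, Trpc6, Kcnn2 and Ocln. None passed limma's adjusted threshold, and DESeq2 called the 5 lower ones and none of the 5 higher ones. Eif4a2 had the smallest adjusted p from DESeq2 among the peaks described here. Limma called none of the 11345 paired peaks at an adjusted p under 0.1, and it called 0% of all 39558 iWAT peaks lower and 0% higher. At an unadjusted p under 0.05 it had 314 lower and 419 higher, against 7.42% and 7.61% of all iWAT peaks. DESeq2 called 44 lower and 41 higher among 11186 tested, against 0.63% and 0.546% of all peaks it tested, and edgeR called 222 lower and 202 higher, against 2.52% and 2.15%. By every one of these rules the share of shared promoter peaks (2.77% and 3.69% for limma, 0.393% and 0.367% for DESeq2, 1.96% and 1.78% for edgeR) was below that of all iWAT peaks. Groups did not overlap for 1060 peaks lower (9.34%) and 1078 higher (9.50%), against 10.3% and 10.6% of all iWAT peaks.

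The number of iWAT calls by DESeq2 depended on which samples were in the fit. With 1 sample left out, DESeq2 called 0 to 86 peaks lower and 1 to 69 higher. The high ends, 86 lower and 69 higher, were both reached without flox replicate 2, where 30 of the 44 lower and 25 of the 41 higher calls were found again, and in the other 5 runs at most 5 peaks were called in either direction. At an unadjusted p under 0.05, DESeq2 without flox replicate 2 had 5.99% of all iWAT peaks lower and 5.67% higher. The other 5 runs had 3.33% to 4.56% of all iWAT peaks lower and 2.99% to 4.17% higher. These shares are at an unadjusted p, so the calls at an adjusted p cannot be set against them. Only Eif4a2 was called in 6 of 6 runs, Il17re and Wdr75 in 4 and Gnao1 in 3. The aliquots of a genotype also came from 1 pool of mice.

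Eif4a2 held 292, 251 and 287 normalized reads in iWAT flox and 418, 461 and 429 in iWAT AKO. All AKO samples were above all flox samples, with a log2 fold change of 0.66 (SE 0.132) and adjusted p-values of 0.151 from limma and 6.1e-05 from DESeq2. Wdr75, a nucleolar gene of ribosome production, held 281, 317 and 291 against 199, 180.4 and 203 (log2 fold change -0.61, adjusted p = 0.00639 from DESeq2). Il17re, a cytokine receptor gene, held 30.6, 57.8 and 43 against 103, 112 and 85.5 (log2 fold change 1.21, adjusted p = 0.00475 from DESeq2). Gnao1, a G protein subunit gene, held 173, 146 and 198 against 269.7, 254 and 283 (log2 fold change 0.65, adjusted p = 0.00887 from DESeq2). None of these 4 had overlapping genotypes in iWAT.

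Of the peaks lower in iWAT with the smallest p, H2-Ab1, an MHC class II chain gene, held 107, 93.4 and 105 normalized reads in flox and 53, 53.7 and 56.7 in AKO. Its log2 fold change was -0.89 (SE 0.128), with adjusted p-values of 0.149 from limma and 0.0215 from DESeq2. Bcl11a, whose protein is a lymphoid transcription factor and a SWI/SNF subunit, held 55.6, 63.4 and 57.7 against 19.6, 25.1 and 31 (log2 fold change -1.21). S1pr1, a sphingosine phosphate receptor gene of endothelium and lymphocytes, held 112, 104 and 118 against 68, 58.2 and 59.9 (log2 fold change -0.84). Inpp5d, which encodes the blood cell phosphatase SHIP1, held 149, 163 and 175 against 95.7, 94.8 and 89.8 (log2 fold change -0.79). Ddx58, the RNA sensor gene of the interferon response, held 134, 130.1 and 157 against 73.8, 85.6 and 74.8 (log2 fold change -0.84). All were separate between genotypes in iWAT, and their BAT log2 fold changes ran from -0.07 to 0.43.

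The 5 peaks higher in iWAT with the smallest p had few reads. Gng4, a G protein gamma subunit gene, held 27.8, 28.9 and 30.1 normalized reads in flox and 50.7, 45.7 and 49.2 in AKO (log2 fold change 0.73). Tmc5 held 15, 17.8 and 18.9 against 30, 40 and 34.2 (log2 fold change 0.97). Trpc6 and Kcnn2, genes of a cation and a potassium channel, had log2 fold changes of 0.77 and 0.74, and the tight junction gene Ocln one of 1.04 from 5.56 to 8.61 reads in flox and 12.7 to 17.1 in AKO. Limma's adjusted p was 0.149 for each, and DESeq2 called none of them.

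**Figure D3:**
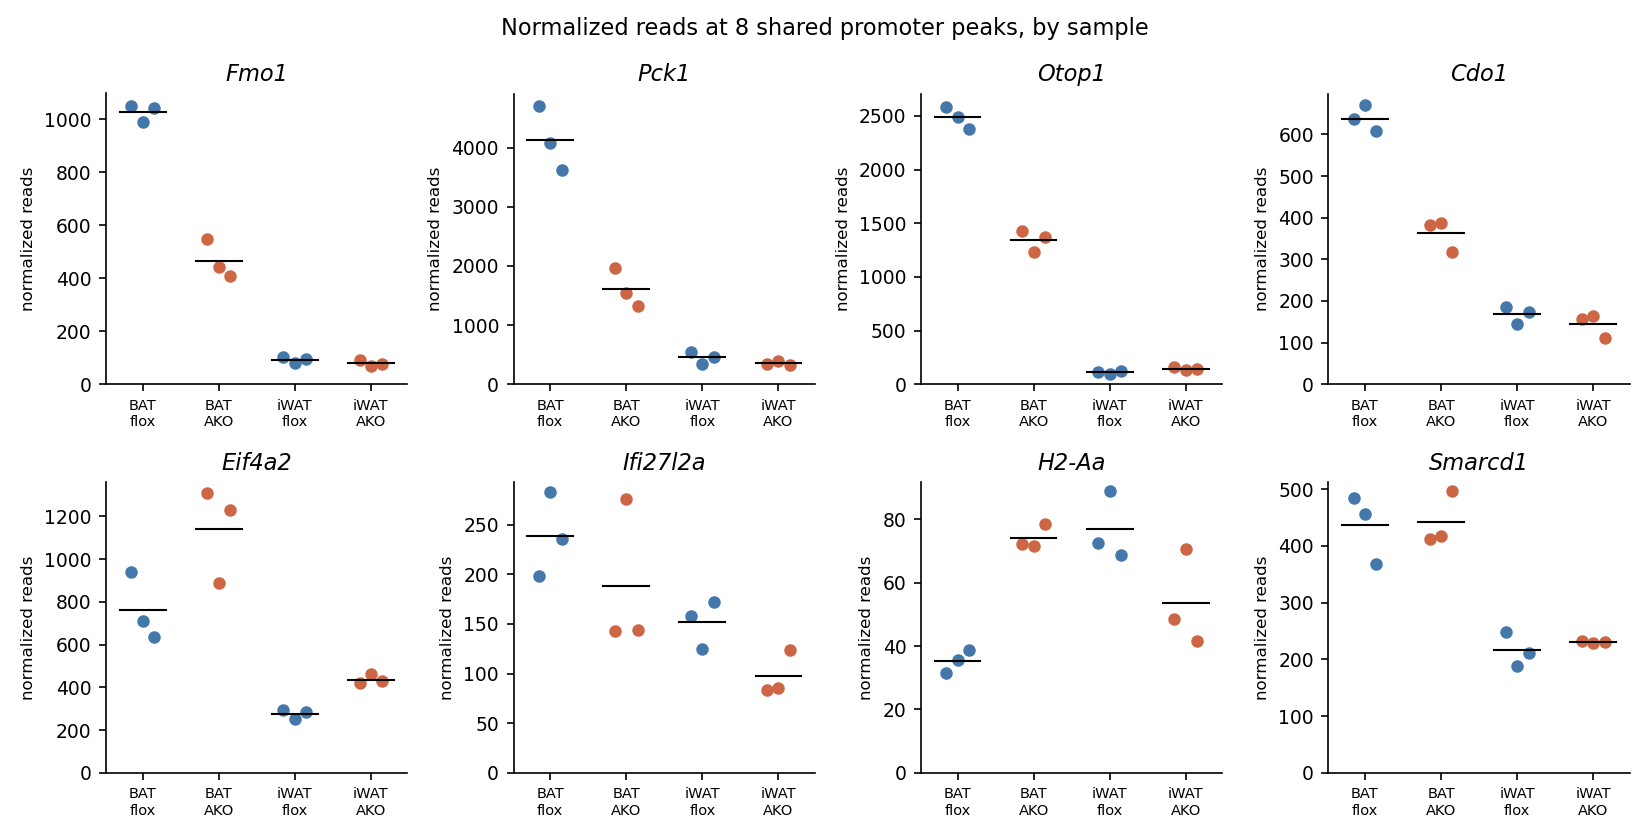
Normalized reads per sample (points; bars, group means) of 8 shared promoter peaks in BAT and in iWAT, flox and AKO. Fmo1, Pck1, Otop1 and Cdo1 have all BAT AKO samples below all BAT flox samples, Eif4a2 has all iWAT AKO samples above flox, and Smarcd1 overlaps in both depots; the depots were normalized separately, so heights are compared within a depot only.

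Log2 fold changes in BAT and in iWAT were only weakly related at the same promoters. Pearson's r of the log2 fold changes over the 11359 pairs was 0.053, or 0.143 with the BAT fit without PC1, and it was 0.136 and 0.062 over the shared peaks away from promoters. The sign was the same for 5806 pairs (51.1%). Genotypes did not overlap and were lower in AKO in both depots for 99 pairs, which is 13.8% of those lower in BAT and 9.31% of those lower in iWAT. Both were higher for 120 pairs, or 11.8% and 11.1%. As shares of all pairs these were 0.872% and 1.06%, against 1.15% and 1.29% of the 20128 shared pairs away from promoters. The depots went in opposite directions for 44 pairs lower in BAT and higher in iWAT (0.387%, against 1.07% away from promoters), and for 71 the other way (0.625%, against 0.661%). Pairs that share an iWAT peak (28 of the peaks) were counted each.

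**Figure D4:**
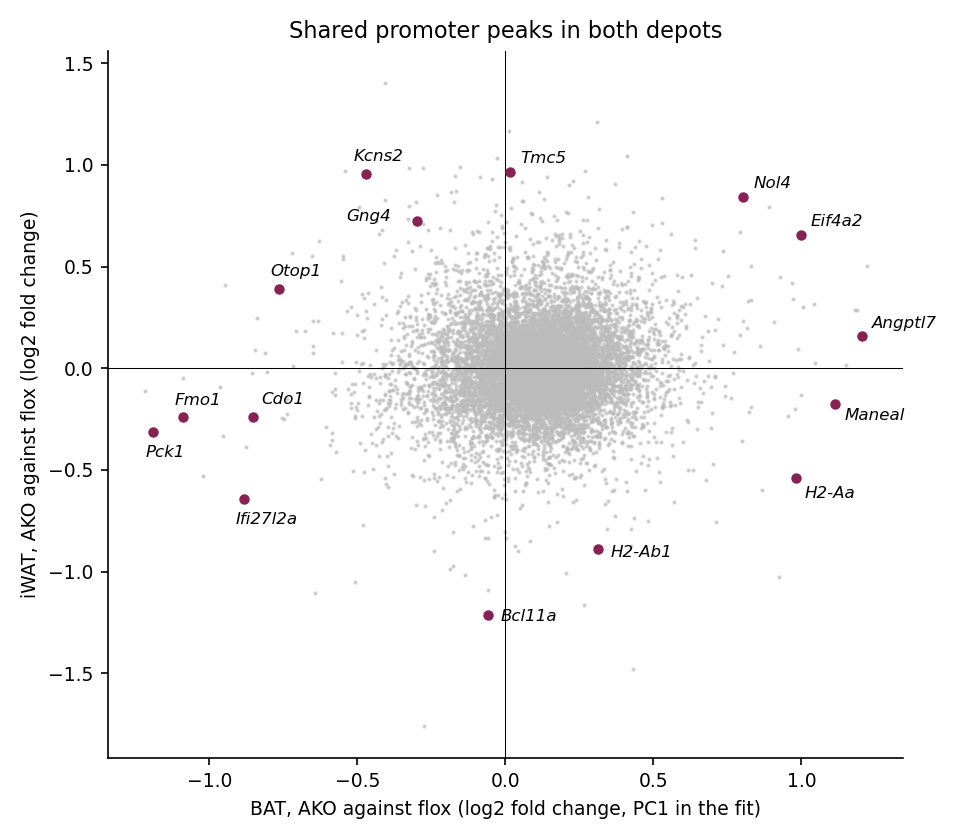
Log2 fold change of AKO over flox in BAT (x axis, PC1 in the fit) and in iWAT (y axis) for the 11359 pairs of shared promoter peaks, with named genes marked. The cloud is round (r = 0.053), Eif4a2 lies at 0.997 and 0.66, and Otop1 lies at -0.77 and 0.39.

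Limma's test of the difference between the depots called none of the shared promoter pairs at an adjusted p under 0.1, and it called 0% of all 31487 overlapping pairs negative and 0% positive. At an unadjusted p under 0.05, 163 pairs (1.43%) had a more negative and 628 (5.53%) a more positive log2 fold change in BAT than in iWAT, against 4.31% and 5.21% of all pairs. Without PC1 these counts were 285 and 513, against 6.49% and 6.28% of all pairs in that fit. Count models were not run on this difference.

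Otop1 was separate between genotypes in both depots, in opposite directions. In iWAT its promoter held 113, 96.7 and 125 normalized reads in flox and 164, 130.2 and 145 in AKO, all AKO samples above all flox samples, where BAT had all AKO samples below. In iWAT alone the adjusted p was 0.309 from limma and 0.354 from DESeq2. The BAT peak was 3288 bp wide and its iWAT partner 1240 bp, so the depots were not read over the same stretch. The BAT minus iWAT difference in log2 fold change was -1.16 (SE 0.213, adjusted p = 0.230 from limma). H2-Aa went the other way, higher in AKO BAT but with 72.7, 88.9 and 68.9 normalized reads in iWAT flox and 48.4, 70.8 and 41.7 in iWAT AKO, where the groups overlapped. Its difference was 1.52 (SE 0.304, adjusted p = 0.254 from limma). Gng4 had a difference of -1.02 (adjusted p = 0.217 from limma), with 161, 188 and 222 normalized reads in BAT flox and 178, 259 and 176 in BAT AKO, a log2 fold change of -0.30 that became 0.09 without PC1. Kcns2, a potassium channel subunit gene, had -1.43, and the histone gene Hist1h3f had 0.96, with 144, 158 and 159 normalized reads in iWAT flox and 96.8, 94.8 and 111 in iWAT AKO. The BAT peaks of Gng4 and Kcns2 were also wider than their iWAT partners, at 1135 against 348 bp and 1019 against 239 bp.

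At an unadjusted p under 0.05 in each depot, 5 pairs were lower in both (0.0440%) and 24 higher in both (0.211%), against 0.512% and 0.686% of the shared pairs away from promoters. Those lower with the smallest p were Ifi27l2a, Hcls1 and Tmem176b, genes of the interferon response, of blood cells and of dendritic cells. Ifi27l2a held 199, 283 and 235 normalized reads in BAT flox and 143, 276 and 144 in BAT AKO, with AKO replicate 2 among the flox values, and 158, 124 and 172 against 83, 85.6 and 124 in iWAT. Its log2 fold changes were -0.88 in BAT (-0.40 without PC1) and -0.64 in iWAT. Hcls1 held 364, 554 and 568 against 329.9, 473 and 433 in BAT and 185, 138 and 173 against 98, 143 and 102 in iWAT, and overlapped in both. Tmem176b had a BAT log2 fold change of -0.49 that turned to 0.20 without PC1. Those higher in both, besides Eif4a2, were Nol4 and Fry. Nol4 held 11.5, 14 and 18.1 against 32, 38.6 and 28.8 in BAT and 30.6, 22.2 and 38.7 against 66.8, 45.7 and 52.4 in iWAT, and Fry had log2 fold changes of 0.63 and 0.46. Limma's adjusted p was at least 0.151 for all of these.

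The Eif4a2 promoter lies among neighbours that also had more reads in AKO, in both depots. Between chr16:22984189-23158743, a stretch of 175 kb from the first Hrg peak to the last Adipoq peak whose limits were set after the values were seen, BAT had 20 peaks of any kind. All 20 had a positive log2 fold change, 16 had all AKO samples above all flox samples, and the median ratio of AKO to flox means was 3.41 (range 1.16 to 7.57). The 31 BAT peaks within 500 kb on either side had a median ratio of 1.08, with 3 peaks separate and higher and 3 separate and lower. In iWAT the stretch held 8 peaks, all with a positive log2 fold change, 5 of them separate, with a median ratio of 1.52 (range 1.11 to 5.54), against a median of 0.933 over the 20 iWAT peaks around it.

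The stretch holds 3 shared promoter peaks. Rfc4, a replication factor gene, held 767, 661 and 630.0 normalized reads in BAT flox and 957, 612 and 816 in BAT AKO, and 189, 128 and 223 against 287, 259 and 244 in iWAT (log2 fold changes 0.52 and 0.58, adjusted p = 0.0996 from DESeq2 in iWAT). Adipoq, the adiponectin gene, held 909, 903 and 986 against 1164, 1238 and 1244 in BAT, and 96.9, 72.3 and 83.5 against 109.5, 94.8 and 75.9 in iWAT. As background, the Cre transgene that only the AKO mice carry is driven by sequence of the Adiponectin gene. Its part in the reads of these 3 promoters and their neighbours was not tested.

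In BAT, the medians of the pathway lists were below that of all shared promoter peaks both with and without PC1, except for the ribosomal protein and stress lists, which were above it with PC1, and the interferon list, which was above it in both fits. The thermogenic, adipocyte and fatty acid oxidation lists were the ones with medians below 0 with PC1. The thermogenic list (22 peaks from 21 of 30 genes) had a median BAT log2 fold change of -0.02 with PC1 and -0.30 without, against 0.11 and -0.07 for all shared promoter peaks. Ucp1 had no shared promoter peak. Genotypes did not overlap for 7 of the 22 peaks lower and 1 higher, against 6.33% and 8.92% of all shared promoter peaks. At an unadjusted p under 0.05, limma had 2 lower and 0 higher, against 0.546% and 2.43% of all shared promoter peaks. Summed over the list, BAT flox samples held 20499 to 24681 normalized reads and AKO samples 14687 to 19535. Besides Otop1, Dio2, the deiodinase gene that activates thyroid hormone, held 408, 341 and 380.3 normalized reads in flox and 273, 297 and 249.5 in AKO. Its BAT log2 fold change was -0.50, and the groups were separate.

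In iWAT the thermogenic list leaned the other way, with 16 of 22 peaks positive and a median log2 fold change of 0.14. Limma had 4 higher and 1 lower at an unadjusted p under 0.05, and genotypes were separate for 5 higher and 1 lower. Of all shared promoter peaks in iWAT, 3.69% were higher and 2.77% lower at that p. Genotypes were separate for 9.50% higher and 9.34% lower. The summed reads were 3762 to 3996 in flox and 4137 to 4209 in AKO. Cidea, a lipid droplet protein gene of brown fat, held 97.7, 75.6 and 95.5 normalized reads in iWAT flox and 119, 148 and 125 in iWAT AKO. Bmp8b held 22.1, 13.3 and 18.1 against 42.6, 35.4 and 21.4, with AKO replicate 3 below flox replicate 1. The 1 peak lower in iWAT, named for that reason, was Ppargc1a, the coactivator gene of mitochondrial biogenesis. It held 119.8, 87.8 and 145 in iWAT flox and 83, 77.6 and 69.5 in iWAT AKO, and in BAT 773, 716 and 737 against 532, 425 and 555, so that it was separate and lower in both depots.

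The adipocyte list (32 peaks from 31 of 32 genes) had a median BAT log2 fold change of -0.04 with PC1 and -0.32 without, and 0.03 in iWAT. In BAT, genotypes were separate for 11 peaks lower and 1 higher, the 1 being Adipoq, against 6.33% and 8.92% of all shared promoter peaks. Limma had Cfd as the only one of the list lower at an unadjusted p under 0.05. Plin1, the perilipin gene, held 998, 972 and 890.0 normalized reads in BAT flox and 689, 485 and 675 in BAT AKO (log2 fold change -0.38). In iWAT, Plin5 held 67, 53.4 and 82.6 against 101, 82.2 and 95.2, and a peak of Pparg, the master regulator gene of fat cells, held 290.1, 297 and 322 against 352, 382 and 384. Left without AKO replicate 2, the BAT medians were -0.05 for the thermogenic and -0.04 for the adipocyte list, with 8 and 11 peaks separate and lower. Among all shared promoter peaks, 7.28% were separate and lower without that sample.

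Fatty acid oxidation (27 peaks) had a BAT median log2 fold change of -0.01 with PC1 and -0.31 without, with 9 peaks separate and lower and 0 higher. For all shared promoter peaks in BAT these shares were 6.33% and 8.92%. A second Acsl1 peak held 472, 478 and 466 normalized reads in BAT flox and 291, 251 and 306 in BAT AKO (log2 fold change -0.63), while the larger Acsl1 peak overlapped between genotypes. Ppara, the nuclear receptor gene that controls this pathway, held 3629, 3267 and 2626 against 2367, 1783 and 2467 in BAT and 348, 405 and 379.6 against 451, 523 and 463 in iWAT. Its normalized reads, which are not adjusted for PC1, were thus separate in opposite directions, with fitted log2 fold changes of -0.19 and 0.34. In BAT the adjusted p was 0.78 from limma and 0.85 from DESeq2. DESeq2 called the iWAT change at an adjusted p of 0.0953, and kept that call in 1 of 6 runs with a sample left out. Fatty acid and triglyceride synthesis (24 peaks) had BAT medians of 0.07 and -0.18 and an iWAT median of -0.07. There Scd1, the stearoyl-CoA desaturase gene, held 369, 379 and 349 against 309, 250 and 289.8 in iWAT, and Me1, the malic enzyme gene, 177, 157 and 205 against 137, 121 and 149.7. Both were separate and lower.

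Lists of functions common to most cells are given next. The median BAT log2 fold changes with and without PC1 were 0.11 and -0.19 for oxidative phosphorylation (42 peaks), 0.18 and -0.12 for cytosolic ribosomal proteins (59 peaks), 0.04 and -0.18 for glycolysis (20 peaks) and 0.10 and -0.09 for SWI/SNF subunits (27 peaks). Their iWAT medians ran from -0.05 to 0.00. In iWAT, limma had 3 ribosomal peaks lower and 0 higher at an unadjusted p under 0.05. Among all shared promoter peaks in iWAT, 2.77% were lower and 3.69% higher at that p. Rps29, among the lower ribosomal peaks, held 366, 252 and 324 normalized reads in flox and 221, 199 and 222 in AKO. DESeq2 called it at an adjusted p of 0.031, and kept the call in 1 of 6 runs with a sample left out. Of the SWI/SNF list only Bcl11a and Smarca2, the gene of the BRM ATPase, were lower in iWAT at an unadjusted p under 0.05, Smarca2 with 50.6, 43.4 and 67.1 against 30, 26.3 and 44.9.

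The clock list (26 peaks) had an iWAT median of -0.09, with 20 of 26 peaks negative, and BAT medians of 0.08 and -0.16. A Rora peak was the only one higher in BAT at an unadjusted p under 0.05, with 358, 319 and 313 normalized reads in flox and 442, 498 and 463 in AKO. Of all shared promoter peaks in BAT, 2.43% were higher at that p. The immediate early and stress list (31 peaks) had 4 peaks lower and 0 higher in iWAT at that p and 9 separate and lower, with a median of -0.03. Among all shared promoter peaks in iWAT, 2.77% were lower at that p and 9.34% were separate and lower. Fosl1, an AP-1 subunit gene, held 37.1, 42.2 and 41.3 in iWAT flox and 30, 25.1 and 23.5 in iWAT AKO. Its BAT medians were 0.16 and -0.22.

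The interferon list (24 peaks) had the lowest iWAT median among the pathway lists, -0.16, with 18 of 24 peaks negative and 8 separate and lower against 1 higher. Limma had 3 lower and 1 higher at an unadjusted p under 0.05. Of all shared promoter peaks in iWAT, 9.34% were separate and lower and 9.50% higher, and 2.77% and 3.69% passed that p. Besides Ddx58 and Ifi27l2a, B2m, the MHC class I light chain gene, held 232, 164 and 211 normalized reads in iWAT flox and 159, 144 and 154 in iWAT AKO. Eif2ak2, the gene of the kinase PKR, was the 1 higher, with 110.5, 137 and 119.6 against 165, 147 and 160.4. In BAT the interferon medians were 0.21 with PC1 and 0.07 without. There 1 peak was lower and 2 were higher at that p, against 0.546% and 2.43% of all shared promoter peaks.

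**Figure D5:**
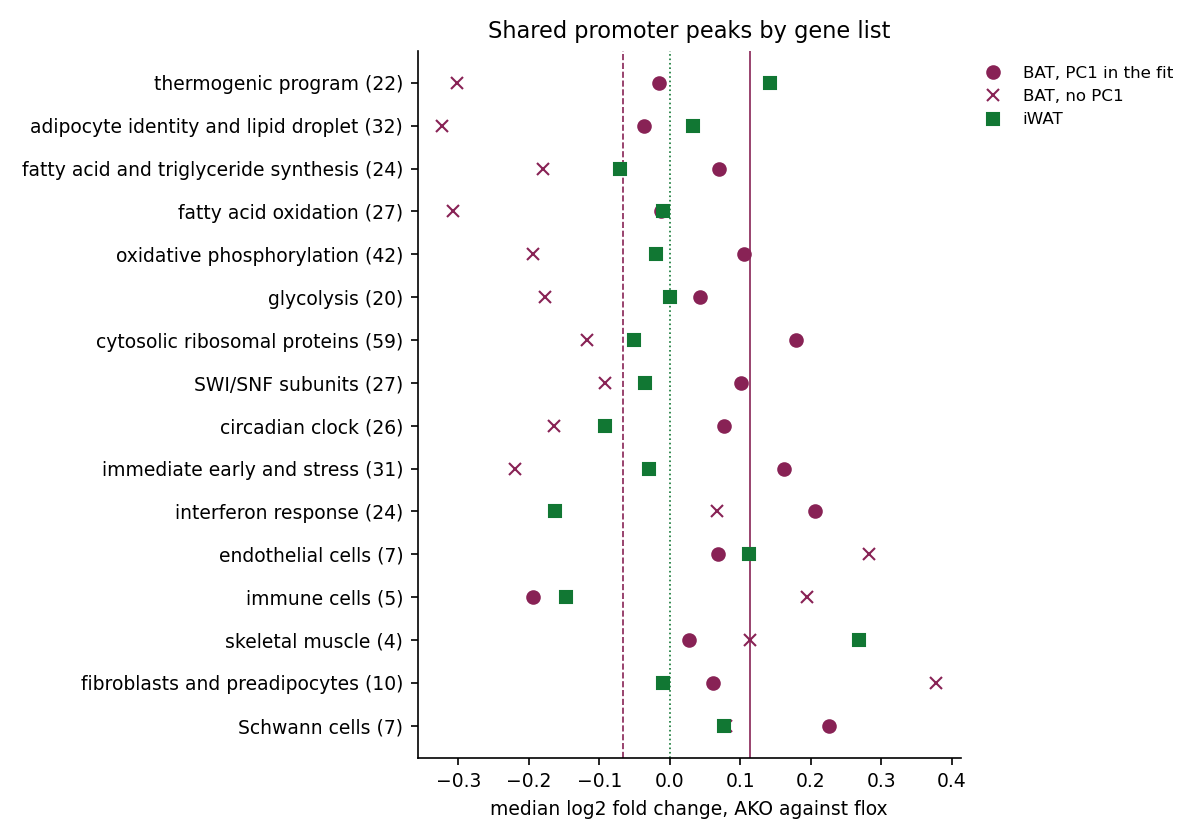
Median log2 fold change of AKO over flox for each gene list with at least 4 shared promoter peaks, in BAT with PC1, in BAT without PC1 and in iWAT; vertical lines mark the medians of all shared promoter peaks. In BAT the thermogenic (-0.02 with PC1, -0.30 without) and adipocyte lists (-0.04 and -0.32) lie left of the line in both fits, as do the other pathway lists except the ribosomal, stress and interferon lists, and in iWAT the interferon list (-0.16) lies farthest left of the pathway lists.

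Markers of other cell types were mostly not among the shared promoter peaks. Peaks were found for 7 of 18 endothelial genes, 5 of 24 immune, 3 of 18 skeletal muscle, 10 of 19 fibroblast, 2 of 17 epithelial and 6 of 10 Schwann cell genes. The summed immune reads in iWAT were 622 to 680 in flox and 578 to 611 in AKO, and in BAT 920.0 to 962 in flox and 972 to 1300 in AKO. The median log2 fold change of the immune list was -0.15 in iWAT, and in BAT it was -0.19 with PC1 and 0.19 without. Its 5 peaks went both ways in iWAT. Cxcr4, a chemokine receptor gene, and Coro1a, an actin regulator gene of blood cells, were separate and lower with log2 fold changes of -0.52 and -0.45, Cd14, a monocyte receptor gene, was separate and higher with 0.32, and Ikzf1 and Lcp1 overlapped, with -0.15 and 0.02. The fibroblast list had BAT medians of 0.06 with PC1 and 0.38 without. In BAT, 4 of its 10 peaks were separate and higher, against 8.92% of all shared promoter peaks. Its sums were 2016 to 2230 in BAT flox and 2051 to 2696 in BAT AKO. Muscle sums were 770.2 to 798 in BAT flox and 783 to 886 in BAT AKO, and 304 to 361 and 365 to 386 in iWAT. Endothelial sums were 1644 to 1709 in BAT flox and 1637 to 1842 in BAT AKO, and 552 to 773 and 727 to 742 in iWAT. Epithelial sums were 155 to 180 and 176 to 234 in BAT. Schwann cell sums were 1782 to 2108 and 1953 to 2326 in BAT. The part of a shift in cell makeup in the differences above was not tested.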

How the data were processed

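ATAC-seq was measured in 12 samples. Per the labels and the study's methods, the authors trimmed adapters, mapped reads to mm10 with BWA 0.7.17-r1188, removed duplicates and low-quality reads, kept autosomal reads, called broad peaks per sample with MACS2 2.1.1.20160309 and counted reads in peaks found in at least 2 of 3 replicates. The version numbers come from the submitters' processing notes, which also name Picard 2.8.14, bedtools 2.27.1 and DESeq2 1.20.0.

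The deposited values are signal: reads per peak divided by a size factor of the sample, in a separate table for each depot. Each value multiplied by 1 size factor per sample gave whole reads to within 3.22e-06, for 100% of the values, and these recovered counts were used for depth (6336670 to 27500738 reads in peaks in BAT, 4066720 to 6691161 in iWAT), DESeq2 1.42.0 and edgeR 4.0.16. Columns with the authors' own comparison (mean, fold change, error, statistic and p-values) were not used, and no sample column was left unused. Peaks were compared with limma 3.58.1 in R 4.3.3 on log2 (value + 1), over all peaks of a table without a filter, p-values adjusted by Benjamini-Hochberg and called under 0.1, with PC1 as a covariate in BAT and none in iWAT, as in the study. The difference between depots was a contrast over the 31487 overlapping pairs. On simulated data, limma was fitted with genotype alone and no PC1, and changes were placed only in well-covered peaks. In BAT it recovered 13 of 100 changes of 1 log2 unit and 98 of 100 of 2 units, with 6 unchanged peaks called. In iWAT it recovered 77 and 100, with 11 unchanged peaks called. The BAT rates therefore do not give the recovery of the BAT fit with PC1, which was not simulated. Tables and figures were made in Python 3.11.15 with numpy 2.4.6, pandas 2.3.3 and matplotlib 3.10.9.

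The peaks, the 17 gene lists and the tests were chosen with earlier results of these data known. Named genes were the 5 peaks of smallest p for each depot and direction; the 5 pairs with the smallest p between depots; the 3 lower and 3 higher in both; the 5 with most reads; the BAF60 genes; and up to 4 examples of each list with the smallest p. Peaks called by DESeq2, Ppargc1a, the immune marker peaks and the chromosome 16 neighbours were named after their values were seen. Sequences came from RefSeq promoters of GRCm38.p6, which matched 8596 of the peaks, and motif windows from the GRCm38 genome. Alternatives tried were other scalings, pseudocounts, a read filter, no PC1 in BAT, PC1 in iWAT, a replicate block, DESeq2, edgeR, narrower definitions of the peaks and leaving out each sample. DESeq2 and edgeR without PC1, and DESeq2 with samples left out, were added after seeing the data.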

Additional observations from a re-analysis of the deposited data

Results flagged for a closer look

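The promoter of Otop1 drew attention because its genotypes were separate in opposite directions in the depots: all AKO samples were below all flox samples in BAT and above them in iWAT. The BAT minus iWAT difference in log2 fold change was -1.16 (adjusted p = 0.230 from limma, which does not pass 0.1). In iWAT alone the adjusted p was 0.309 from limma, and the iWAT peak was 1240 bp wide against 3288 bp in BAT. It was 1 of 44 shared promoter pairs that were separate and lower in BAT and separate and higher in iWAT, which is 0.387% of the shared promoter pairs, against 216 pairs or 1.07% of the shared pairs away from promoters.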

How the results depend on the processing

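Limma called 0 shared promoter peaks under every scaling, pseudocount, filter, threshold and definition tried, with the exception that the difference between depots had 2 calls without PC1 and 1 without iWAT flox replicate 2. In BAT, DESeq2 on all samples called 14 lower and 4 higher, edgeR 10 and 1, DESeq2 without PC1 33 and 40, and edgeR without PC1 1 lower. With PC1, DESeq2 called 0.298% and 0.11% of all BAT peaks it tested, and edgeR 0.114% and 0.029%. At an unadjusted p under 0.05, DESeq2 had 3.28% of all BAT peaks lower and 2.69% higher with PC1. Without PC1 these were 4.49% and 7.46%, and 4.77% and 8.07% for edgeR. With flox replicates 1 to 3 and then AKO replicates 1 to 3 left out in turn, DESeq2 called 9, 5, 2, 5, 14 and 8 lower and 1, 1, 1, 1, 2 and 9 higher in BAT. Across those runs, 1.64% to 2.51% of all BAT peaks were lower and 1.04% to 2.68% higher at an unadjusted p under 0.05. These unadjusted shares, and those without PC1, are not at the threshold of the calls, so the counts cannot be set against them. In iWAT, DESeq2 called 44 and 41, edgeR 222 and 202, and DESeq2 with samples left out in the same order 0, 86, 1, 4, 3 and 5 lower and 1, 69, 5, 5, 3 and 4 higher. On all samples, DESeq2 called 0.63% and 0.546% of all iWAT peaks it tested, and edgeR 2.52% and 2.15%. The BAT median log2 fold change of 0.113 became -0.0659 without PC1 and ran from 0.0686 to 0.160 with a sample left out. The iWAT median became 0.214 with PC1, a fit in which PC1 and genotype cannot be told apart, and ran from -0.0189 to 0.0116 with a sample left out. The difference in the share of reads ran from -2.2 to 0.574 percentage points in BAT and from -0.387 to 0.393 in iWAT with a sample left out.

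With the replicate number as a block, limma called 0 peaks in each depot, with a BAT median of 0.132. Same-numbered samples did not deviate together in every pair (correlations of deviations 0.494, 0.063 and -0.236 in BAT and -0.039, -0.050 and -0.057 in iWAT), so the numbers were not taken as pairing. Among named peaks, PC1 in iWAT reversed Bcl11a (0.016), Tmc5 (-0.21), Kcnn2 (-0.23), Ifi27l2a (1.55) and the larger Smarcd2 peak (0.78). Without PC1 in BAT, Tmem176b reversed (0.20 in limma, 0.22 in DESeq2 and 0.22 in edgeR), as did the larger Smarcd2 peak (-0.18, -0.17 and -0.16). The smaller Smarcd2 peak, near 0 in iWAT, reversed with total reads (0.0022) and edgeR (0.00063), and it ran from -0.069 to 0.031 in iWAT and from -0.29 to 0.069 in BAT with a sample left out. With a sample left out, Smarcd3 ran from -0.33 to 0.016 in BAT and from -0.022 to 0.087 in iWAT. The cause of these changes was not tested. Another 566 values of named peaks kept their direction and side of the threshold, and 36 passed it only in the alternative. Depth limits precision at peaks with few reads.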
